A study of Arabidopsis thaliana with 28 samples.

Results

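The 6 genes CYP79B2, CYP79B3, CYP71A12, CYP71A13, PAD3 and WRKY33 carry the synthesis of camalexin and its control in Arabidopsis thaliana. They were chosen by their role in the pathway after their fold changes in these libraries, that of CYP71A13 in ibm1 first, were known. Their rows were taken by locus identifier (AT4G39950, AT2G22330, AT2G30750, AT2G30770, AT3G26830 and AT2G38470) from the 27416 genes of the deposited count tables. All 6 passed the filter on low counts, as did 21548 genes in all. RNA was sequenced from closed flower buds of ibm1, ibm1 jmj27 and pds5 mutants and of the wild type Col (Columbia), 4 genotypes with 2 libraries each. IBM1 and JMJ27 encode histone demethylases that act on H3K9 methylation, a mark of silent chromatin, and PDS5 proteins are cofactors of cohesin. The labels name no alleles, do not name the PDS5 genes mutated in pds5, and do not say that the libraries of a genotype came from separate plants. The p-values therefore measure only the spread between these libraries, which may be technical.

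Camalexin is an indole phytoalexin, an antimicrobial compound that Arabidopsis leaves make after infection. CYP79B2 and CYP79B3 are cytochrome P450 enzymes that turn tryptophan into indole-3-acetaldoxime, which also feeds the indole glucosinolates and auxin. CYP71A13 and its close copy CYP71A12 turn the oxime into indole-3-acetonitrile, glutathione is then added and trimmed, and PAD3 (CYP71B15) closes the ring that makes camalexin. WRKY33 is a transcription factor that binds the CYP71A13 and PAD3 promoters after pathogen signals reach it through the kinases MPK3 and MPK6.

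Total counts per library ran from 19490663 to 26038662, the basis of the scaled levels, in CPM (counts scaled to a common library size). Libraries of the same genotype differed beyond counting noise, with chi-square per degree of freedom from 2.3 in ibm1 to 14.4 in ibm1 jmj27. The list of targeted genes held 7 loci. At an adjusted p under 0.05 against Col (edgeR), 1 rose and 3 fell in ibm1, 5 fell in ibm1 jmj27 and 4 fell in pds5. The loci given next stood lower than in Col in the mutants labelled for them. IBM1 stood at 52.5 and 55.5 CPM in Col against 21.2 and 19.9 CPM in ibm1 and 18.8 and 21.4 CPM in ibm1 jmj27. AT4G00990, the JMJ27 locus, stood at 8.35 and 8.40 CPM in ibm1 jmj27 and from 60.3 to 77.7 CPM elsewhere. AT5G47690, a PDS5 locus, stood at 3.30 and 3.51 CPM in pds5 against 236 and 249 CPM in Col. It also stood lower in ibm1 than in Col, though by far less than in pds5, and ibm1 is not labelled for it. The cause of that lower level in ibm1 was not tested. Floral organ identity genes were present in every library, AP3 from 168 to 195 CPM and AG from 62.8 to 108 CPM, as closed buds should show.

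The 6 genes were chosen with results of these comparisons known, so their own values are given as levels and fold changes with no p-value. A gene counts as past the threshold where its adjusted p was under 0.05 (edgeR quasi-likelihood test, Benjamini-Hochberg over 21548 genes). In ibm1 against Col, 3 of the 6 genes were past it, all higher: CYP79B2, CYP71A13 and WRKY33. The share of all genes past it was 31.0% in either direction and 16.5% higher. In ibm1 jmj27 against Col, 4 of the 6 were past it and higher, CYP71A12 beside those 3, with 50.5% of all genes past it and 26.7% higher. In pds5 against Col, 5 of the 6 were past it and higher, all but CYP71A12, with 49.0% of all genes past it and 25.8% higher. That last count was 3 without Col replicate 2. The median log2 fold change of the 6 genes against Col was 0.82 in ibm1, 2.16 in pds5 and 2.02 in ibm1 jmj27, and that of all genes was 0.02, 0.00 and 0.03. The 3 comparisons share the Col libraries. The shares of all genes past the threshold given here also stand beside the counts of every gene list below. Both mutant libraries lay above both Col libraries for 4 of the 6 genes in ibm1 and for 6 of 6 in both other mutants, as did 37.4%, 38.8% and 39.3% of all genes.

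**Figure D1:**
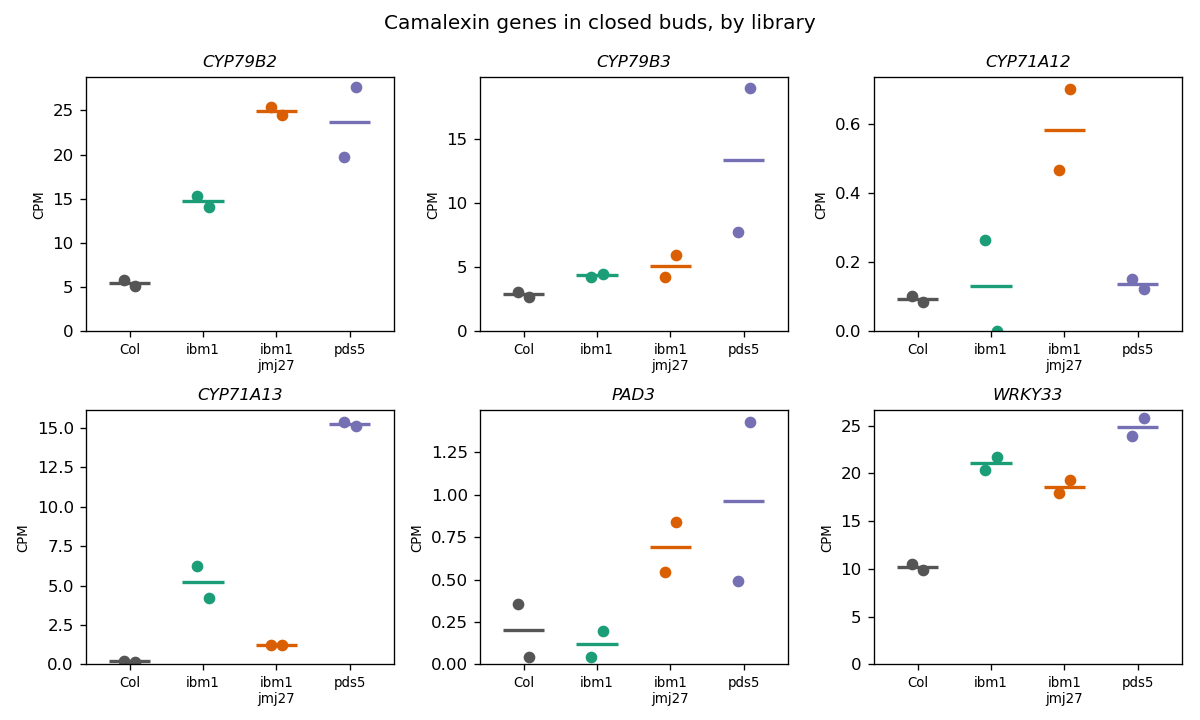
Level of each camalexin gene (CPM, linear axis from 0, a separate scale for each gene) in Col, ibm1, ibm1 jmj27 and pds5. Points are libraries and bars are the mean of 2; CYP71A13 stands at about 15 CPM in both pds5 libraries and at or under 0.204 CPM in Col, while PAD3 and CYP71A12 stay under 1.5 CPM in every library.

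CYP79B2, the first enzyme, stood at 5.77 and 5.12 CPM in Col. In ibm1 it stood at 15.3 and 14.1 CPM, in ibm1 jmj27 at 25.4 and 24.5 CPM, and in pds5 at 19.7 and 27.6 CPM. No mutant library overlapped Col, the ibm1 libraries lay below those of the other mutants, and the pds5 range enclosed that of ibm1 jmj27. The log2 fold change against Col was 1.44 ± 0.17 (SE) in ibm1, 2.12 ± 0.16 in pds5 and 2.20 ± 0.16 in ibm1 jmj27. This call held in all 13 alternative fits, among them each library left out in turn, at the same threshold.

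CYP79B3, which does the same reaction, moved less evenly. It stood at 3.11 and 2.69 CPM in Col, 4.27 and 4.47 CPM in ibm1, and 4.23 and 5.97 CPM in ibm1 jmj27. The pds5 libraries stood at 7.73 and 19.0 CPM, so replicate 2 was 2.46 times replicate 1. The log2 fold change was 0.60 ± 0.51 (SE) in ibm1, 2.21 ± 0.46 in pds5 and 0.81 ± 0.49 in ibm1 jmj27. Without pds5 replicate 2 the pds5 value was 1.42, and without pds5 replicate 1 it was 2.72. The call in pds5 was lost without Col replicate 2 (log2 fold change 2.09), or without either library of ibm1 jmj27, which is not part of that comparison (2.20 in both fits). It was also lost with pds5 and Col fitted alone. CYP79B3 was past the threshold in ibm1 with that genotype and Col fitted alone, and in ibm1 jmj27 with that genotype and Col fitted alone or without either pds5 library.

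The counts of the pair shifted in their shares. CYP79B3 held 34.7% of the counts of both genes in Col (95% exact binomial interval 29.8% to 39.9%) and 35.9% in pds5 (33.7% to 38.1%). It held 22.9% in ibm1 (20.0% to 25.9%) and 16.7% in ibm1 jmj27 (14.8% to 18.8%). Such intervals cover counting error only, and within pds5 the share was 28.1% in replicate 1 and 40.8% in replicate 2. The summed level was 8.34 ± 0.767 CPM (SD, n = 2) in Col, 19.1 ± 0.690 CPM in ibm1, 37.1 ± 13.6 CPM in pds5 and 30.1 ± 0.572 CPM in ibm1 jmj27. How reads that match both copies were counted is not given in the sources used here, so the split between copies is less certain than the sum.

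CYP71A13, the main acetonitrile-forming enzyme in infected Arabidopsis leaves, had the widest range of the 6 genes. It drew 4 and 4 counts in Col, 141 and 85 in ibm1, 32 and 27 in ibm1 jmj27, and 405 and 369 in pds5. As levels these were 0.204 and 0.171 CPM in Col, 6.21 and 4.18 CPM in ibm1, 1.24 and 1.26 CPM in ibm1 jmj27, and 15.3 and 15.1 CPM in pds5. None of the 4 genotypes overlapped another. Between any pair of genotypes, 33.6% to 39.3% of all genes lay above without overlap and 34.2% to 38.9% below. The share of all genes with all 4 genotypes apart at once was not counted. The ratio to Col from summed counts was 28.2 in ibm1 (95% exact Poisson interval 14.1 to 66.2), 6.73 in ibm1 jmj27 (3.20 to 16.3) and 81.9 in pds5 (41.3 to 190). The log2 fold change was 4.77 ± 0.34 (SE), 2.71 ± 0.43 and 6.31 ± 0.30 in the same order. Set against ibm1 directly, CYP71A13 was lower in ibm1 jmj27, with a log2 fold change of -2.06 ± 0.23, and higher in pds5, at 1.54 ± 0.18. Over the alternative fits the value against Col ran from 4.45 to 5.01 in ibm1, 2.58 to 2.83 in ibm1 jmj27 and 6.18 to 6.43 in pds5.

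CYP71A12, the neighbouring copy, was near the detection limit. It drew 2 and 2 counts in Col, 6 and 0 in ibm1, 12 and 15 in ibm1 jmj27, and 4 and 3 in pds5. Only the ibm1 jmj27 libraries, at 0.466 and 0.700 CPM, lay above all the other libraries. The ratio to Col was 6.16 in ibm1 jmj27 (95% exact Poisson interval 2.15 to 24.2), 1.5 in ibm1 (0.356 to 7.23) and 1.48 in pds5 (0.376 to 6.90). At this depth a difference from Col of the size seen in ibm1 or pds5 was not detectable. The call in ibm1 jmj27 was lost with DESeq2, without either Col library and without ibm1 jmj27 replicate 2.

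The pair of copies therefore did not move together. CYP71A13 took 66.7% of the counts of both copies in Col (exact interval 34.9% to 90.1%) and 68.6% in ibm1 jmj27 (57.7% to 78.2%). It took 97.4% in ibm1 (94.5% to 99.0%) and 99.1% in pds5 (98.2% to 99.6%). The interval of ibm1 jmj27 lay apart from those of ibm1 and pds5, and Col rests on 12 counts in all. With the copies summed before the fit, the log2 fold change against Col was 4.24 ± 0.33 (SE) in ibm1, 5.75 ± 0.29 in pds5 and 2.69 ± 0.39 in ibm1 jmj27.

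**Figure D2:**
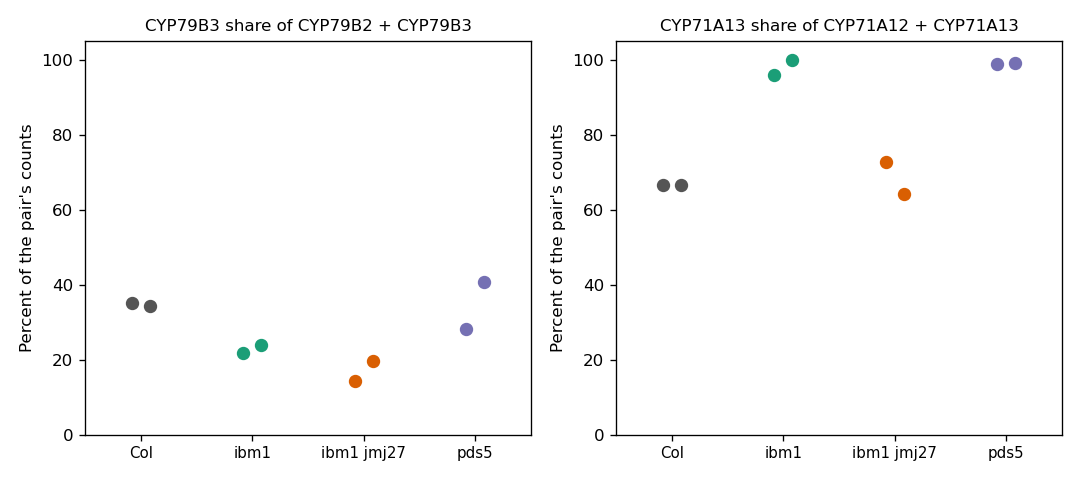
Share of a copy pair's counts, in percent, that fell to CYP79B3 (left) and to CYP71A13 (right), with 1 point per library in each genotype. The CYP71A13 share is 95.9% or more in all ibm1 and pds5 libraries and between 64.3% and 72.7% in the Col and ibm1 jmj27 libraries, where Col rests on 6 counts per library.

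CYP71A12 and CYP71A13 lie close together on chromosome 2, with the loci AT2G30760 and AT2G30766 between them. In the RefSeq annotation of TAIR10.1, used for names and neighbours only, the CYP71A13 model overlaps AT2G30766, which in turn overlaps AT2G30760. Whether counting used strand is not given in the sources used here, so reads in an overlap cannot be assigned to 1 gene with certainty. Neither locus carries a name in the tables used, and no role is given to them here.

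Both loci between the copies followed CYP71A13 and not CYP71A12. AT2G30760 drew 0 counts in both Col libraries, 44 and 28 in ibm1, 1 and 1 in ibm1 jmj27, and 272 and 181 in pds5. It rose at least 24.0-fold in ibm1 (adjusted p = 2.11e-05, edgeR) and at least 128-fold in pds5 (adjusted p = 2.88e-08), with the Col group set at a floor of 3 counts. Its adjusted p in ibm1 jmj27 was 0.193. AT2G30766 drew 0 and 0 counts in Col, 24 and 16 in ibm1, 1 and 4 in ibm1 jmj27, and 146 and 104 in pds5. It rose at least 13.3-fold in ibm1 (adjusted p = 3.05e-04) and at least 70.5-fold in pds5 (adjusted p = 5.17e-07). In ibm1 jmj27 its adjusted p was 0.0581, and it passed at 0.0188 without ibm1 jmj27 replicate 1 and at 0.0498 with no filter on low counts. Direct comparison put both loci lower in ibm1 jmj27 than in ibm1 (adjusted p = 2.10e-05 for AT2G30760 and 0.00133 for AT2G30766).

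The genes flanking the stretch moved little. AT2G30740, on the CYP71A12 side, had log2 fold changes of -0.12, -0.09 and -0.26 in ibm1, ibm1 jmj27 and pds5. AT2G30780, on the CYP71A13 side, had 0.31, 0.13 and 0.22. AT2G30740 passed in pds5 (adjusted p = 0.0270) and AT2G30780 in ibm1 (adjusted p = 0.0388), and both calls were lost in several leave-one-out fits. Of the 12 listed loci around the copies, 10 were tested: 4 rose and 0 fell in ibm1, 3 rose and 1 fell in ibm1 jmj27, and 4 rose and 1 fell in pds5. One further along, PSBP-2, rose in all 3 mutants, with log2 fold changes of 2.71, 2.57 and 2.76 (adjusted p = 3.74e-04, 2.64e-04 and 1.19e-04).

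**Figure D3:**
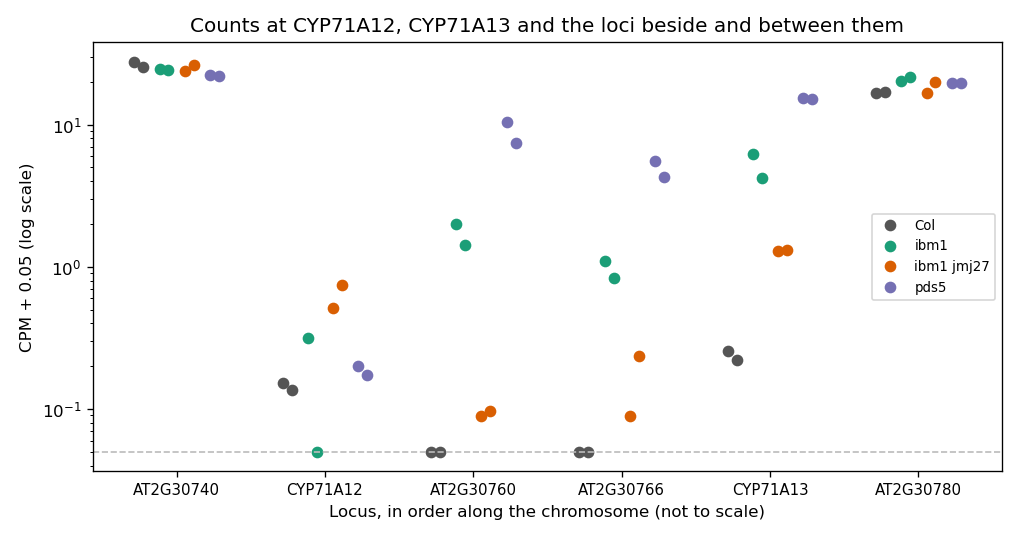
Level of the loci from AT2G30740 to AT2G30780, in their order along the chromosome but not to scale, as CPM plus 0.05 on a log axis, with 1 point per library and the dashed line marking 0 CPM. CYP71A13, AT2G30766 and AT2G30760 show the same ladder, pds5 above ibm1 above ibm1 jmj27, whereas CYP71A12 stands above the other genotypes in ibm1 jmj27 and the flanking genes lie level.

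PAD3, which completes camalexin, was also close to the detection limit. It drew 7 and 1 counts in Col, 1 and 4 in ibm1, 14 and 18 in ibm1 jmj27, and 13 and 35 in pds5. The ibm1 jmj27 and pds5 libraries, from 0.493 to 1.43 CPM, all lay above Col, and ibm1 overlapped Col. The ratio to Col was 3.65 in ibm1 jmj27 (95% exact Poisson interval 1.65 to 9.16), 5.08 in pds5 (2.38 to 12.4) and 0.625 in ibm1 (0.161 to 2.17). The log2 fold change was 1.83 ± 0.83 (SE), 2.31 ± 0.78 and -0.66 ± 1.17 in that order. In pds5 it was 4.32 without Col replicate 1, and it fell short of the threshold without Col replicate 2 (1.40) or without pds5 replicate 2 (1.36). In ibm1 jmj27 it passed without Col replicate 1, at 3.84.

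In ibm1 CYP71A13 and PAD3 thus stood apart: CYP71A13 was 27.7 times its Col mean, while PAD3 drew 5 counts over both ibm1 libraries and 8 over both Col libraries. Against ibm1, the PAD3 ratio was 5.84 in ibm1 jmj27 (2.26 to 19.2) and 8.13 in pds5 (3.25 to 26.2).

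WRKY33, the regulator, stood at 10.5 and 9.89 CPM in Col, 20.4 and 21.7 CPM in ibm1, 18.0 and 19.3 CPM in ibm1 jmj27, and 24.0 and 25.8 CPM in pds5. All mutant libraries lay above Col and no genotypes overlapped. For single pairs of genotypes the shares of all genes are those given for CYP71A13. The log2 fold change was 1.05 ± 0.10 (SE) in ibm1, 1.29 ± 0.10 in pds5 and 0.87 ± 0.10 in ibm1 jmj27, and these calls held in all 13 alternative fits. A gene model that overlaps WRKY33, AT2G38480, had log2 fold changes of -0.16, 0.14 and 0.06 (adjusted p = 0.591, 0.574 and 0.838).

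WRKY33 and CYP71A13 were the only pair of the 6 with the same order of genotype means, pds5 above ibm1 above ibm1 jmj27 above Col. For WRKY33 the steps between mutants were small. In ibm1 jmj27 against ibm1 it was not past the threshold, with log2 fold changes from -0.23 to -0.13 over the alternative fits. In pds5 against ibm1 they ran from 0.19 to 0.29, and the call was lost with DESeq2 or no filter, among others. CYP79B2 stood highest in ibm1 jmj27 and pds5, which overlapped. CYP79B3 stood highest in pds5, with ibm1 jmj27 and ibm1 overlapping below it. PAD3 fell into a higher pair, pds5 and ibm1 jmj27, and a lower pair, Col and ibm1, each pair overlapping. CYP71A12 was high in ibm1 jmj27, and its other 3 genotypes were not separable except that both pds5 libraries lay just above Col.

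Between mutants the 6 genes are compared as values too. In ibm1 jmj27 against ibm1, 2 stood higher and past the threshold, CYP79B2 and PAD3, and CYP71A13 stood lower, where 45.5% of all genes were past it. The PAD3 call there was lost without ibm1 replicate 1 (log2 fold change 1.77), ibm1 replicate 2 (3.78) or ibm1 jmj27 replicate 2 (2.17). In pds5 against ibm1, 5 stood higher, all but CYP71A12, where 44.5% of all genes were past it, and that count was 2 without ibm1 replicate 1, 3 without ibm1 replicate 2, 3 without pds5 replicate 2 and at most 4 with any other single library left out. In ibm1 jmj27 against pds5, 3 stood lower, CYP79B3, CYP71A13 and WRKY33, where 39.9% of all genes were past it. Of these, CYP79B3 kept its call in 4 of 13 alternative fits that count CYP79B2 and CYP79B3 separately, and with single libraries left out it kept it only without pds5 replicate 1.

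Within pds5 the libraries differed in a gene-specific way. Replicate 2 was 2.90 times replicate 1 for PAD3, 2.46 times for CYP79B3 and 1.40 times for CYP79B2. It was 1.08 times replicate 1 for WRKY33, 0.982 times for CYP71A13 and 0.809 times for CYP71A12. What distinguishes these libraries was not tested.

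Among other enzymes and transporters of the pathway, of 12 listed genes, 9 were tested: 3 rose and 1 fell in ibm1, 5 rose and 1 fell in ibm1 jmj27, and 5 rose and 2 fell in pds5. The median log2 fold changes of the tested genes were 0.00, 0.51 and 0.34, and the highest was 2.19 for GSTU4, a glutathione transferase gene, in pds5 (adjusted p = 0.0317). GSTU4 was named after its values were seen, and its call was lost in 6 alternative fits, among them that without pds5 replicate 2, where its value was 0.98 (adjusted p = 0.172). The pds5 count of 7 was 2 without Col replicate 1, 4 without Col replicate 2, 4 without pds5 replicate 1 and 3 without pds5 replicate 2. GGP1, the peptidase that trims the glutathione conjugate, rose by a log2 fold change of 0.55 ± 0.10 (SE) in ibm1 (adjusted p = 0.00148), 0.92 ± 0.10 in ibm1 jmj27 (adjusted p = 7.03e-06) and 1.19 ± 0.10 in pds5 (adjusted p = 6.25e-07). CYP71B6, which metabolises indole-3-acetonitrile, rose by 0.42, 0.87 and 0.75 (adjusted p = 0.00268, 1.71e-06 and 7.28e-06).

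GSTF6, a glutathione transferase placed in camalexin synthesis, had a log2 fold change of -0.22 in ibm1 (adjusted p = 0.390) and rose by 1.32 in ibm1 jmj27 (adjusted p = 1.82e-05). Its rise of 0.63 in pds5 (adjusted p = 0.00672) was lost without Col replicate 1 (adjusted p = 0.0892) or pds5 replicate 2 (adjusted p = 0.0803). GSH1, the first enzyme of glutathione synthesis, had -0.02 in ibm1 (adjusted p = 0.877) and rose by 0.41 in ibm1 jmj27 (adjusted p = 4.18e-04). In pds5 GSH1 also rose past the threshold, a call lost without any 1 of the Col or pds5 libraries (0.22 to 0.27). The exporter gene PEN3 fell by 0.80 in ibm1 (adjusted p = 0.00266) and by 1.15 in ibm1 jmj27 (adjusted p = 1.43e-04). Its fall by 0.44 in pds5 (adjusted p = 0.0285) was lost without Col replicate 1, Col replicate 2 or pds5 replicate 1. ABCG40, another transporter gene of the list, rose by 1.21 in ibm1 (adjusted p = 1.15e-04). It also rose past the threshold in ibm1 jmj27. That call was lost with this genotype and Col fitted alone (0.48), without Col replicate 1 (0.40) or without ibm1 jmj27 replicate 1 (0.23).

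**Figure D4:**
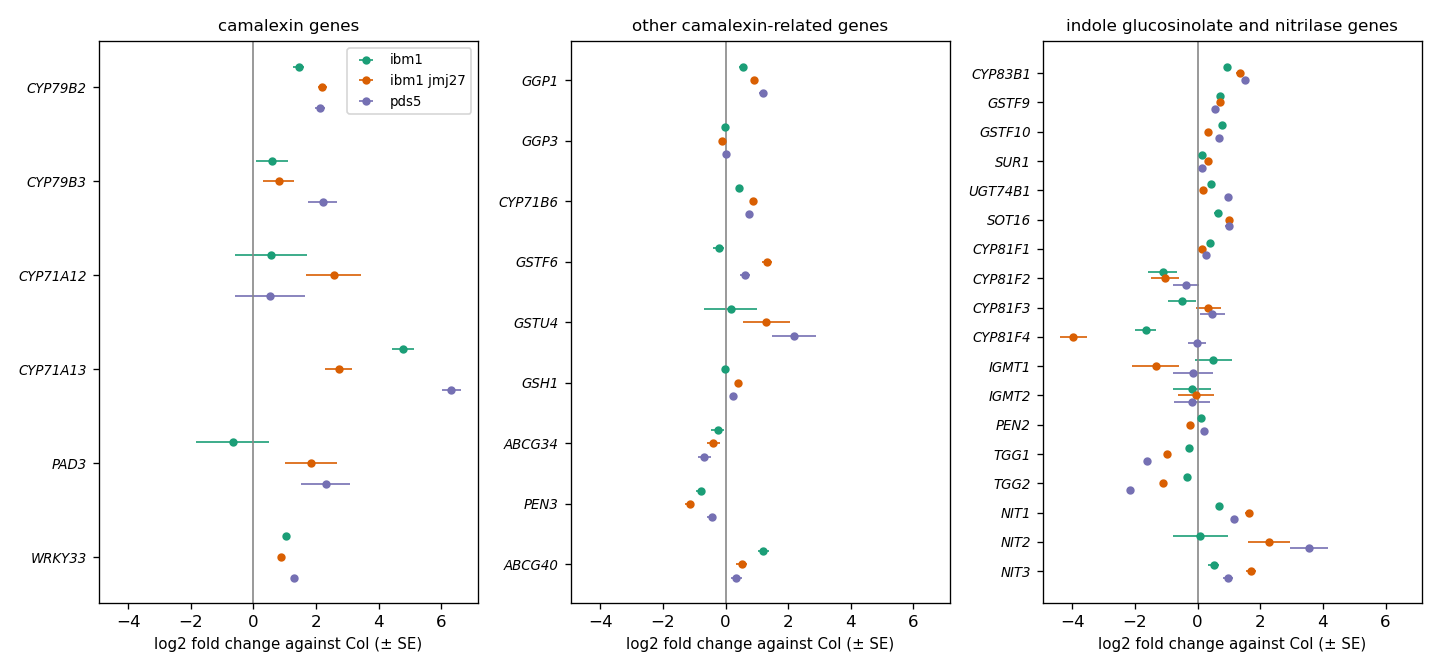
Log2 fold change against Col with its standard error for the camalexin genes (left), the other tested camalexin-related genes (middle) and the indole glucosinolate and nitrilase genes (right), in ibm1, ibm1 jmj27 and pds5. CYP71A13 reaches 6.31 in pds5, and PEN3 lies left of 0 in all mutants. The right panel also holds the myrosinase genes TGG1 and TGG2, which lie lowest in pds5.

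Regulators upstream of or beside WRKY33 split. Of 17 listed, 15 were tested: 2 rose and 0 fell in ibm1, 7 rose and 4 fell in ibm1 jmj27, and 7 rose and 3 fell in pds5. The counts of 11 and 10 in the last 2 mutants were both 6 without Col replicate 2, and that in ibm1 ran from 0 to 4 with single libraries left out. The median log2 fold changes were 0.16, -0.05 and 0.13. MYB34, an activator of CYP79B2 and CYP79B3 in the indole glucosinolate pathway, rose by a log2 fold change of 0.91 in ibm1 (adjusted p = 0.00346), 1.19 in ibm1 jmj27 (adjusted p = 1.82e-04) and 1.45 in pds5 (adjusted p = 2.62e-05). The ibm1 call was lost without ibm1 replicate 2 (0.70, adjusted p = 0.0567). MYB51, a related activator, had -0.08 in ibm1 (adjusted p = 0.867) and rose by 1.39 in ibm1 jmj27 (adjusted p = 6.22e-04) and by 1.05 in pds5 (adjusted p = 0.00515), the latter lost without Col replicate 2 (adjusted p = 0.0702).

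The kinase gene MKK4, which acts above MPK3 and MPK6, rose by 0.61 in ibm1 jmj27 (adjusted p = 7.85e-05) and by 0.40 in pds5 (adjusted p = 0.00223), and in ibm1 it had 0.21 (adjusted p = 0.0978). SIB1, whose protein binds and stimulates WRKY33, fell by 0.91 in ibm1 jmj27 (adjusted p = 1.80e-04) and had 0.17 in ibm1 (adjusted p = 0.392). Its fall by 0.62 in pds5 (adjusted p = 0.00284) was lost without Col replicate 2 (adjusted p = 0.0568). CPK5, a calcium-dependent kinase gene, fell by 0.41 in pds5 (adjusted p = 7.93e-04). It also fell past the threshold in ibm1 jmj27, a call lost without Col replicate 2 (log2 fold change -0.22). ANAC042, a transcription factor of camalexin induction named here after its values were seen, drew 10 counts in Col, 4 in ibm1, 56 in pds5 and 57 in ibm1 jmj27. Its log2 fold change was -1.27 in ibm1 (adjusted p = 0.304), and it rose by 2.35 in ibm1 jmj27 (adjusted p = 0.00303) and 2.23 in pds5 (adjusted p = 0.00446, and 0.0798 without pds5 replicate 2).

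Values of other defence WRKY genes are given beside those of WRKY33. Of all genes, 16.5%, 26.7% and 25.8% were past the threshold and higher in ibm1, ibm1 jmj27 and pds5. In either direction the shares were 31.0%, 50.5% and 49.0%. Of 8 listed, 6 were tested: 0 rose and 2 fell in ibm1, 3 rose and 1 fell in ibm1 jmj27, and 2 rose and 0 fell in pds5. The ibm1 count was 1 without Col replicate 2 or ibm1 replicate 2. In ibm1, WRKY18 fell by a log2 fold change of 0.73 (adjusted p = 6.16e-04). WRKY60 rose by 1.35 in ibm1 jmj27 (adjusted p = 3.56e-05) and 0.95 in pds5 (adjusted p = 7.75e-04). WRKY25, a close relative of WRKY33, rose by 1.62 in pds5 (adjusted p = 7.29e-05) and by 0.65 in ibm1 jmj27 (adjusted p = 0.0447).

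Transcripts of tryptophan synthesis moved in both directions. Of all genes, 31.0%, 50.5% and 49.0% were past the threshold against Col in ibm1, ibm1 jmj27 and pds5. Of 9 genes of tryptophan synthesis, 2 rose and 3 fell in ibm1, 2 rose and 3 fell in ibm1 jmj27, and 4 rose and 3 fell in pds5. Without Col replicate 2, without ibm1 replicate 1 (for ibm1) or without pds5 replicate 2 (for pds5), these totals of 5, 5 and 7 changed by over 1.5 times, to lows of 3, 3 and 4. PAT1, the second enzyme, rose by 0.34, 0.60 and 0.58 (adjusted p = 0.0390, 7.54e-04 and 9.20e-04), and ASA2, an anthranilate synthase subunit gene, fell by 0.33, 0.62 and 0.64 (adjusted p = 0.00373, 1.14e-05 and 8.18e-06).

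Indole-3-acetaldoxime also enters the indole glucosinolate branch through CYP83B1. The 18 listed genes, all tested, were those of that branch, the nitrilases and the myrosinase genes TGG1 and TGG2. Of them, 8 rose and 3 fell in ibm1, 8 rose and 3 fell in ibm1 jmj27, and 9 rose and 2 fell in pds5. TGG1 and TGG2 were among the falls in each mutant and were the only falls in pds5. The ibm1 total of 11 was 7 without ibm1 replicate 1. The medians were 0.27, 0.25 and 0.37. CYP83B1 stood at 40.4 and 47.0 CPM in Col, 83.4 and 83.9 CPM in ibm1, 107 and 115 CPM in ibm1 jmj27, and 111 and 140 CPM in pds5. It rose by a log2 fold change of 0.93 ± 0.11 (SE), 1.34 ± 0.11 and 1.52 ± 0.11 (adjusted p = 2.90e-05, 3.35e-07 and 9.60e-08). The branch genes GSTF10, a glutathione transferase gene, and NIT1, a nitrilase gene, rose in all 3 mutants. NIT1 rose by 0.70, 1.63 and 1.18 (adjusted p = 9.85e-04, 2.83e-07 and 5.76e-06), and GSTF10 by 0.79, 0.32 and 0.67 (adjusted p = 4.08e-06, 0.00332 and 6.17e-06), where the second call was lost without Col replicate 1 (adjusted p = 0.0535).

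All genes with a mean log2 CPM of at least 1, other than the member itself, were ranked by likeness to each member. Genes of the pathway and of the other lists were thus among the candidates. The measure was the root mean square difference of log2 CPM, centred per gene, over the 8 libraries, with 18117 genes as candidates. For CYP71A13 the nearest were AFP1 at 0.46, PUB19 at 0.62 and IPMI2 at 0.78, where CYP71A13 itself departs from its own mean by 2.18. AFP1 averaged 2.31 CPM in Col, 35.3 CPM in ibm1, 68.5 CPM in pds5 and 12.8 CPM in ibm1 jmj27. For WRKY33 they were COPT1 at 0.07, KT2/3 at 0.09 and SR1 at 0.09. For CYP79B2 they were CAM9 at 0.13, WRKY57 at 0.15 and AT1G07450 at 0.15. For PAD3 they were PR5 at 0.60, GRP-3 at 0.61 and AT1G11850 at 0.61. For CYP79B3 they were AT1G69480, AT1G09932 and AT5G54300, all between 0.31 and 0.32, and for CYP71A12 they were RLP11, AT1G61080 and AT1G29660, between 0.45 and 0.47. None of these genes was among the 3 nearest of the same member by Pearson's r. CYP71A12 and PAD3 themselves depart from their own means by 0.94 and 1.19. Their mean log2 CPM, -1.94 and -1.23, lay below the minimum set for candidates, so their rankings rest on few counts.

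A list of 4 iron-deficiency regulators, bHLH38, bHLH39, bHLH100 and bHLH101, is given beside CYP71A13, with whose values known it was chosen. In ibm1 and in pds5 all 4 rose, and in ibm1 jmj27 0 of 4 passed in the edgeR fit and 1 without Col replicate 1. bHLH38 drew 1 count in Col, 411 in ibm1, 689 in pds5 and 4 in ibm1 jmj27. bHLH100 stood at 0.664 and 1.71 CPM in Col, 14.0 and 13.6 CPM in ibm1, 1.05 and 0.747 CPM in ibm1 jmj27, and 5.46 and 6.91 CPM in pds5, so there ibm1 lay above pds5. In pds5 against ibm1, 2 of the 4 rose and 1, bHLH100, fell. The median log2 fold change of the 4 against Col, in ibm1, ibm1 jmj27 and pds5, was 5.86, 1.46 and 6.74.

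**Figure D5:**
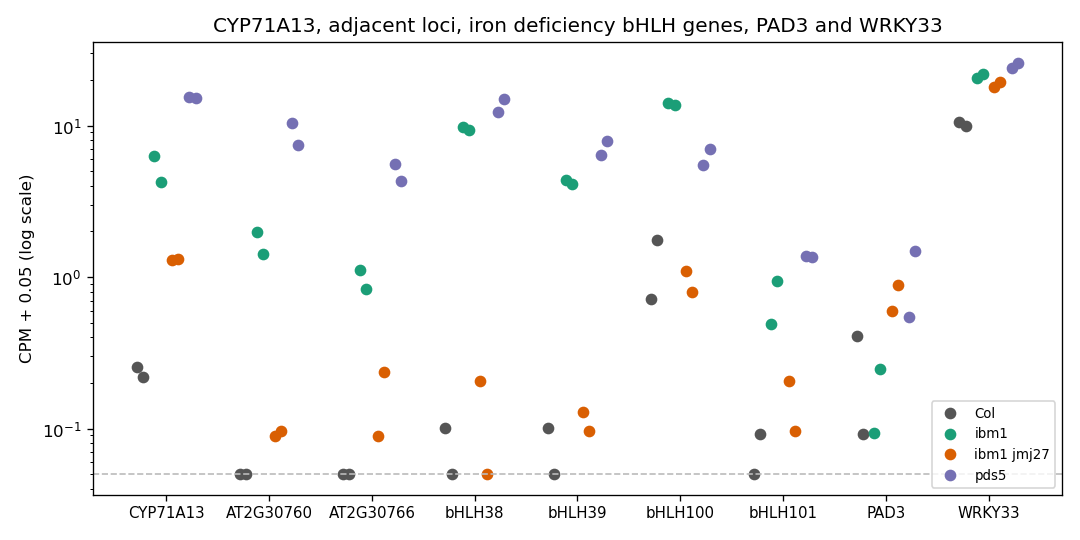
Level of CYP71A13, the adjacent loci AT2G30760 and AT2G30766, 4 bHLH genes of iron deficiency, PAD3 and WRKY33, as CPM plus 0.05 on a log axis, with 1 point per library and the dashed line marking 0 CPM. The 4 bHLH genes and the loci by CYP71A13 are high in ibm1 and pds5 and low in Col and ibm1 jmj27, and PAD3 is not.

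Other features of the libraries moved with the genotypes. The summed level of 4 green tissue markers was 6900 to 6970 CPM in Col, 10600 to 11000 CPM in ibm1, 13100 to 13300 CPM in ibm1 jmj27 and 9680 to 9700 CPM in pds5. That of 6 pollen markers was 113 to 119, 47.5 to 49.0, 10.7 to 11.8 and 111 to 133 CPM, and that of 7 tapetum markers 523 to 580, 339 to 341, 361 to 568 and 200 to 272 CPM. That of 4 root markers was 23.2 to 28.1, 14.8 to 15.6, 6.33 to 8.26 and 10.5 to 12.1 CPM, with CASP1 at 0 in every library. That of 3 senescence markers was 2.55 to 3.71, 3.10 to 3.39, 9.36 to 10.2 and 6.67 to 8.13 CPM, and SAG12 was at 0 in every mutant library. The morning clock gene LHY stood at 3.01 and 2.86 CPM in Col, 18.6 and 20.5 CPM in ibm1, 484 and 502 CPM in ibm1 jmj27 and 607 and 597 CPM in pds5. Their part in the camalexin values was not tested, and in bulk buds fewer cells of a type and less RNA per cell cannot be told apart.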

How the data were processed

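Polyadenylated RNA of closed buds was sequenced in 8 libraries, with paired reads of 150 bp per the labels' protocols. The authors deposited raw counts per gene, made with HISAT2, Subread and DESeq2 on the TAIR10 build per the submitters' processing notes; no version, strand setting or rule for reads with several matches is given in the sources used here. Coordinates, sequences and the 20 chromatin libraries were not analysed here. Names came from RefSeq (TAIR10.1), which held 26719 of the 27416 genes; 7 of 155 listed loci without a matching symbol were left out.

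All 8 libraries were fitted together in edgeR 4.0.16 (R 4.3.3): TMM scaling, filterByExpr, and the robust quasi-likelihood test with 4 residual degrees of freedom and a mean per genotype. CPM used TMM library sizes. The standard error (SE) was derived from the F statistic and the fold change, and can fall below counting error where counts are few. Intervals and floors of 3 counts cover counting error only. The fit was also run on simulated counts with 200 genes changed in each mutant and the same spread set for every gene. Far more genes were called in the data, so that run does not measure the error rate here.

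The 6 genes and all lists were chosen with earlier results of these data known. Besides the 6, the text names up to 6 genes per list by smallest p against Col, the neighbouring loci, the 3 nearest genes by likeness and the targeted genes; later choices are marked. Alternatives were DESeq2 1.42.0 and its size factors, no filter, pairs fitted alone, a replicate term, each library left out, stricter thresholds and summed copies.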

Additional observations from a re-analysis of the deposited data

How the results depend on the processing

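CYP79B2, CYP71A13 and WRKY33 kept their call and direction against Col in all 13 alternative fits at the same threshold, and the calls of CYP79B3, CYP71A12 and PAD3 did not. With a minimum absolute log2 fold change of 1, genes past the threshold fell from 6680 to 1530 in ibm1 against Col, and stood at 3485 in ibm1 jmj27 and 2725 in pds5 against Col, 2601 in ibm1 jmj27 and 2009 in pds5 against ibm1, and 2490 in ibm1 jmj27 against pds5. At an adjusted p under 0.01 they were 4017 in ibm1 against Col and 5550 in ibm1 jmj27 against pds5. With single libraries left out, the count ran from 3709 to 9015 in ibm1 against Col, from 6451 to 10955 in ibm1 jmj27 against ibm1, and from 6348 to 11653 in pds5 against ibm1. Of the 6 camalexin genes, 3 to 5 passed in pds5 against Col with single libraries left out. In pds5 against ibm1 5 passed, with 44.5% of all genes past the threshold, and 2 to 4 with single libraries left out, 2 at an adjusted p under 0.01, 3 with the minimum fold change and 3 with no filter. The cause of these changes was not tested beyond the stricter rules and fewer samples themselves. Summing the copies, which replaces CYP71A12 by mostly CYP71A13 counts, turned its log2 fold change to -1.55 in ibm1 jmj27 against ibm1, -3.07 in ibm1 jmj27 against pds5 and 1.52 in pds5 against ibm1. Over all genes, same-numbered libraries showed little shared deviation (correlations of deviations from -0.007 to 0.101). A shared effect on some of the genes was not tested. With the replicate block more genes passed in every comparison, 7027 in place of 6680 in ibm1 against Col. Of the 6 camalexin genes, 3, 4 and 5 passed against Col with that block, as without it. Single-gene results were also compared for the other camalexin, regulator and indole glucosinolate lists and the loci beside CYP71A12 and CYP71A13. Of these results, 3712 kept their side of the threshold, 246 lost their call and 84 gained a call. Genes of the remaining lists were not compared gene by gene. Depth limits CYP71A12 and PAD3, whose Col libraries hold 1 to 7 counts.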

Other observations

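The aliphatic glucosinolate genes, which start from methionine and not from tryptophan, also moved. Of 10 listed genes 8 were tested: 7 rose in ibm1, 7 in pds5 and 3 in ibm1 jmj27, and 0 fell, with median log2 fold changes of 1.82, 2.34 and 0.92 (edgeR, adjusted p under 0.05). CYP83A1, the counterpart of CYP83B1 in this branch, rose in ibm1, ibm1 jmj27 and pds5 by 2.54, 2.22 and 2.56 (adjusted p = 7.86e-09, 6.32e-09 and 1.42e-09). MAM1, which lengthens the methionine side chain, rose by 2.74 in ibm1 (adjusted p = 1.17e-04) and 3.18 in pds5 (adjusted p = 8.80e-06), and had 0.05 in ibm1 jmj27 (adjusted p = 0.941). In direct comparison MAM1 was lower in ibm1 jmj27 than in ibm1, by a log2 fold change of -2.69 (adjusted p = 6.57e-05). BCAT4, an early enzyme of the same chain, drew 0 counts in Col, 23 in ibm1, 81 in pds5 and 4 in ibm1 jmj27, at least 7.67-fold higher in ibm1 and at least 22.8-fold higher in pds5.

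The myrosinase genes TGG1 and TGG2, whose enzymes break glucosinolates down, had lower levels in the mutants. Both are among the 18 genes counted above with the indole glucosinolate branch. TGG1 averaged 3218 CPM in Col, 2676 CPM in ibm1, 1047 CPM in pds5 and 1633 CPM in ibm1 jmj27. It fell by a log2 fold change of 0.98 in ibm1 jmj27 (adjusted p = 1.46e-06) and 1.62 in pds5 (adjusted p = 9.89e-09), and its fall by 0.27 in ibm1 (adjusted p = 0.0454) was lost without any 1 of the Col, ibm1 or pds5 libraries (adjusted p from 0.0654 to 0.343). TGG2 averaged 5035 CPM in Col, 3946 CPM in ibm1, 1117 CPM in pds5 and 2316 CPM in ibm1 jmj27. It fell by a log2 fold change of 1.12 in ibm1 jmj27 (adjusted p = 2.70e-07) and 2.17 in pds5 (adjusted p = 4.27e-10), and its fall by 0.35 in ibm1 (adjusted p = 0.00970) was lost without Col replicate 2 or either ibm1 library.

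Of 14 listed salicylic acid, jasmonate and immune genes 11 were tested: 0 rose and 1 fell in ibm1, 6 rose and 1 fell in ibm1 jmj27, and 9 rose and 1 fell in pds5. The ibm1 total of 1 was 0 without ibm1 replicate 1, ibm1 replicate 2 or pds5 replicate 1, and 2 without either ibm1 jmj27 library. PR2, a glucanase gene of the salicylic acid response, stood at 11.1 and 12.3 CPM in Col and 13.0 and 11.8 CPM in ibm1, and at 49.4 and 48.1 CPM in ibm1 jmj27 and 80.2 and 87.8 CPM in pds5. PR1, a marker of the same response, drew 4 counts in Col, 1 in ibm1, 384 in pds5 and 7 in ibm1 jmj27, with a log2 fold change of 6.26 in pds5 (adjusted p = 4.81e-08). Of 8 early touch and wounding genes, 2 rose in ibm1, 6 rose in ibm1 jmj27, and 4 rose and 1 fell in pds5. The ibm1 count was 1 without any 1 of the Col, ibm1 or pds5 libraries.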
